A study of Saccharomyces cerevisiae with 6 samples.

Results

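Mid-arm loci are the stretches of a chromosome arm that lie beyond the centromere's immediate surroundings and before the chromosome end. Here they were the 10 kb bins whose midpoint is 50 to 300 kb from the centromere and more than 30 kb from an end of the chromosome. Contacts between such loci on different chromosomes were examined in 2 Hi-C maps of budding yeast. The loci were defined by position, and bins with too few values in the maps were then left out. Chromosome XII, which carries the rDNA, and the mitochondrial genome were left out of the mid-arm loci, so that these lay on 15 chromosomes. Of 524 mid-arm bins, 515 had enough values to be used, on 28 arms. The short right arms of chromosomes I and IX held no such bin. These bins formed 122312 pairs on different chromosomes, which is 22.5% of the 544303 pairs between chromosomes that were used. Those 544303 pairs, which set the mean between chromosomes, include bins of chromosome XII.

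In budding yeast all centromeres are held together at the spindle pole body by microtubules, the telomeres lie at the nuclear envelope, and the arms extend from the centromere cluster across the nucleus. This is called the Rabl configuration. In it, 2 loci on different chromosomes tend to lie in the same shell of the nucleus when they are at a similar distance from their centromeres, and short arms cannot reach as far from the cluster as long ones. Hi-C measures such proximity by fixing cells, cutting the chromatin with DpnII, and ligating and sequencing ends that lie close together.

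The 2 maps are replicates 1 and 2 of the haploid MATa strain yMD291, of the W303 background, grown in medium without methionine. Both cultures have the alleles tor1-1 and fpr::NAT, bar1, and the marker alleles ade2-1, can1-100 and ura3-1, with trp1-1, his3-11,15 and a leu2 mutant allele. They have constructs that express tetR-mCherry, LacI-GFP, LacI and tetR from REV1 promoters at HIS3 and ADE2, a LacO array at position 497047 of chromosome XV and a TetO array at position 834487. The labels describe 4 further samples, from a control strain and a strain with LacO repeats at YBP2, each with or without estradiol. These were not analysed here. The 2 maps form a single group, so no group comparison was possible. An exact two-sided sign-flip test over 2 maps cannot give a p below 0.5. Means ± SD are over the 2 maps, and the intervals on contacts are 95% Poisson intervals that cover counting error only.

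Some mid-arm bins on different chromosomes share stretches of identical sequence. Several of the highest single bin pairs share such stretches. Whether the shared sequence bears on their contacts was not tested. Below are 3 such stretches from the R64 reference, in lower case with DpnII sites (GATC) in capitals. The first lies in the Ty3 retrotransposons YGRWTy3-1 (chrVII:710223-710342, plus strand) and YILWTy3-1 (chrIX:208326-208445), the second joins chrIV:651420-651503 with chrVII:319679-319762, and the third joins chrIII:169240-169359 with chrXV:117736-117855.
Chromosomes VII and IX: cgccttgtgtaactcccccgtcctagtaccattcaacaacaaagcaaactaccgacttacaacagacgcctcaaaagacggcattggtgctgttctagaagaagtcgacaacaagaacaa
Chromosomes IV and VII: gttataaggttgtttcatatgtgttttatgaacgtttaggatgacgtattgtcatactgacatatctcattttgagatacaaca
Chromosomes III and XV: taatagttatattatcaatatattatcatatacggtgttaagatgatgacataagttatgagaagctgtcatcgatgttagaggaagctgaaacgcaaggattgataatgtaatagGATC
The Ty3 stretch and the one of III and XV are 120 bases of matches of 370 and 329 bases, and that of IV and VII is the whole match of 84 bases. Of all mid-arm pairs, 736 share at least 1 identical word of 50 bases.

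The maps held 3751691 and 3511728 contacts in the nuclear genome, of which 1004871 and 931315 were between chromosomes. Mid-arm pairs took 242300 contacts in replicate 1 and 224661 in replicate 2, and 24.1% of those between chromosomes in each. Each bin pair held 1.98 and 1.84 contacts on average, and 2 in the median. The share of mid-arm pairs at 0 contacts was 18.2% in replicate 1 and 20.5% in replicate 2, so the counting error of any single bin pair is large. Over the 122312 bin pairs the 2 maps correlated with r = 0.249 (rho = 0.141), while over 364 pairs of arms they correlated with r = 0.947 (rho = 0.857). Bin pairs and arm pairs share bins and are not independent, so these are descriptions. The mid-arm bins resembled the other nuclear bins in composition. They averaged 38.3% GC, 29.8 DpnII sites and 5.10 gene starts per bin, against 38.3%, 29.6 and 4.89 in the other bins. Their counts of tRNA genes and Ty elements were 129 and 35, in 105 and 32 bins, where an element across a bin edge counts in each bin.

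Contact between mid-arm loci was a little above the mean for pairs on different chromosomes. Their observed over expected value (O/E), the balanced signal over its mean across all pairs between chromosomes, was 1.202 in replicate 1 and 1.201 in replicate 2. It was far below the value of pairs within 50 kb of the centromeres, which averaged 3.74 ± 0.0327, and of pairs within 30 kb of chromosome ends, at 2.24 ± 0.0335. It was close to that of distal pairs, over 300 kb from the centromere, at 1.27. Mid-arm loci met loci of other zones less often than each other. Their O/E was 1.02 ± 0.00486 with pericentromeric bins, 1.05 ± 0.00218 with bins near ends, and 0.845 with distal bins.

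The mid-arm range was not uniform. Contact was highest between loci nearest to the centromere and depended on both distances. Pairs with both loci 50 to 100 kb from their centromeres reached 2.03 (replicate 1) and 2.02 (replicate 2). When the partner lay 100 to 150 kb out, these loci had an O/E of 1.50 ± 0.00592. At 150 to 200 kb it was 1.07 ± 0.0102, at 200 to 250 kb it was 0.865 ± 0.00637, and at 250 to 300 kb it was 0.732 ± 0.00613. The inner loci therefore met the outermost mid-arm loci less often than the mean pair between chromosomes. Among loci at equal distance, the O/E was 1.49 ± 0.00163 at 100 to 150 kb, and 1.23 ± 0.0139 at 150 to 200 kb. It was 1.20 ± 0.0106 at 200 to 250 kb and 1.21 ± 0.0161 at 250 to 300 kb, which differ by less than their spread. A locus 250 to 300 kb out had an O/E of 1.00 with loci 100 to 150 kb out, 1.09 ± 0.00561 at 150 to 200 kb and 1.18 ± 0.0201 at 200 to 250 kb.

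**Figure D1:**
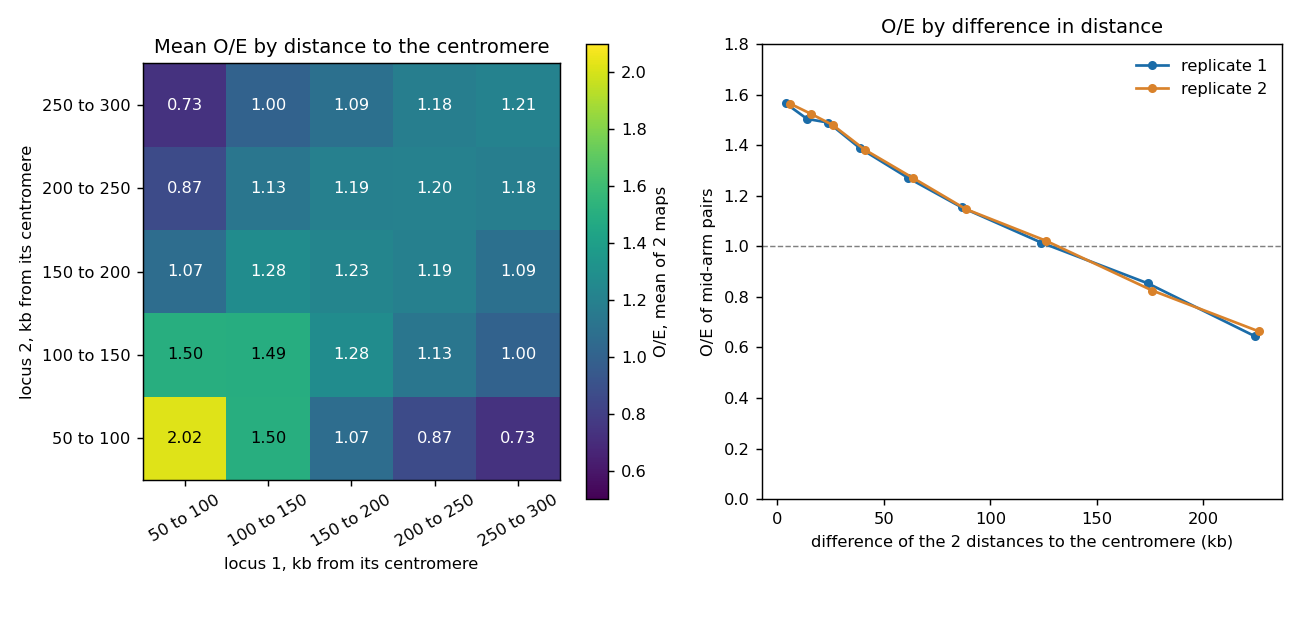
Left, mean O/E of mid-arm pairs (mean of the 2 maps) by the distance of each locus to its own centromere in kb, with the value in each square. Right, O/E in replicates 1 and 2 against the difference of the 2 distances in kb, each point at the middle of its class; the dashed line is the mean between chromosomes. The inner corner holds the highest value, 2.02, and the corner that joins inner and outer loci the lowest, 0.73.

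Pooled over the mid-arm range, loci at like distances met more often than loci at unlike distances. This did not hold for every class of distance. Loci 150 to 200 kb out had 1.28 ± 0.00269 with loci 100 to 150 kb out, but 1.23 ± 0.0139 among themselves. The classes of difference below also differ in how near their loci lie to the centromere. Where the distances to the centromere differed by at most 10 kb, the O/E was 1.57 in replicate 1 and 1.56 in replicate 2. It was 1.38 ± 0.00312 at a difference of 30 to 50 kb, 1.15 ± 0.00502 at 75 to 100 kb, and 1.02 ± 0.00565 at 100 to 150 kb. At 200 to 250 kb it was 0.645 in replicate 1 and 0.664 in replicate 2. Each of the 9 classes of difference lay below the one before it, in both maps. Pairs within 20 kb of each other in distance had an O/E of 1.54 ± 0.00633 (19196 pairs), and pairs over 100 kb apart had 0.917 ± 0.00204 (43815 pairs). Their ratio was 1.67 in replicate 1 and 1.69 in replicate 2.

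Every one of the 28 arms had a like-distance ratio above 1 in both maps. The arms ranged from 1.45 to 3.18, with a median of 1.66. The ratio was highest for the left arms of VIII, at 3.18 ± 0.144, and of III, at 3.02 ± 0.276, and for the right arm of VI, at 2.85 ± 0.0896. All 3 are short arms whose mid-arm bins all lie within 100 kb of the centromere, so that their unlike partners are the outer loci of longer arms. It was lowest for the left arm of XIII, at 1.45 ± 0.0186.

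Because distance to the centromere carried so much of the contact, arms were compared after matching on it. The matched O/E of a set of pairs is its mean signal over the mean of mid-arm pairs in the same pair of 50 kb classes of distance. A value of 1 is the contact of an average mid-arm pair at those distances. Of 365 pairs of arms, 364 had at least 10 bin pairs, with 12 to 625 bin pairs each and a median of 614 contacts in replicate 1 and 564.5 in replicate 2. Their matched O/E ranged between 0.429 and 1.50, and in 288 both maps lay to 1 side of an average pair. The 2 maps correlated with r = 0.883 (rho = 0.837) over them. A pair of arms was called where the counting interval lay above 1 in both maps or below 1 in both, with no adjustment for the number of pairs. In all 30.8% were called, 41 higher (11.3%) and 71 lower (19.5%).

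**Figure D2:**
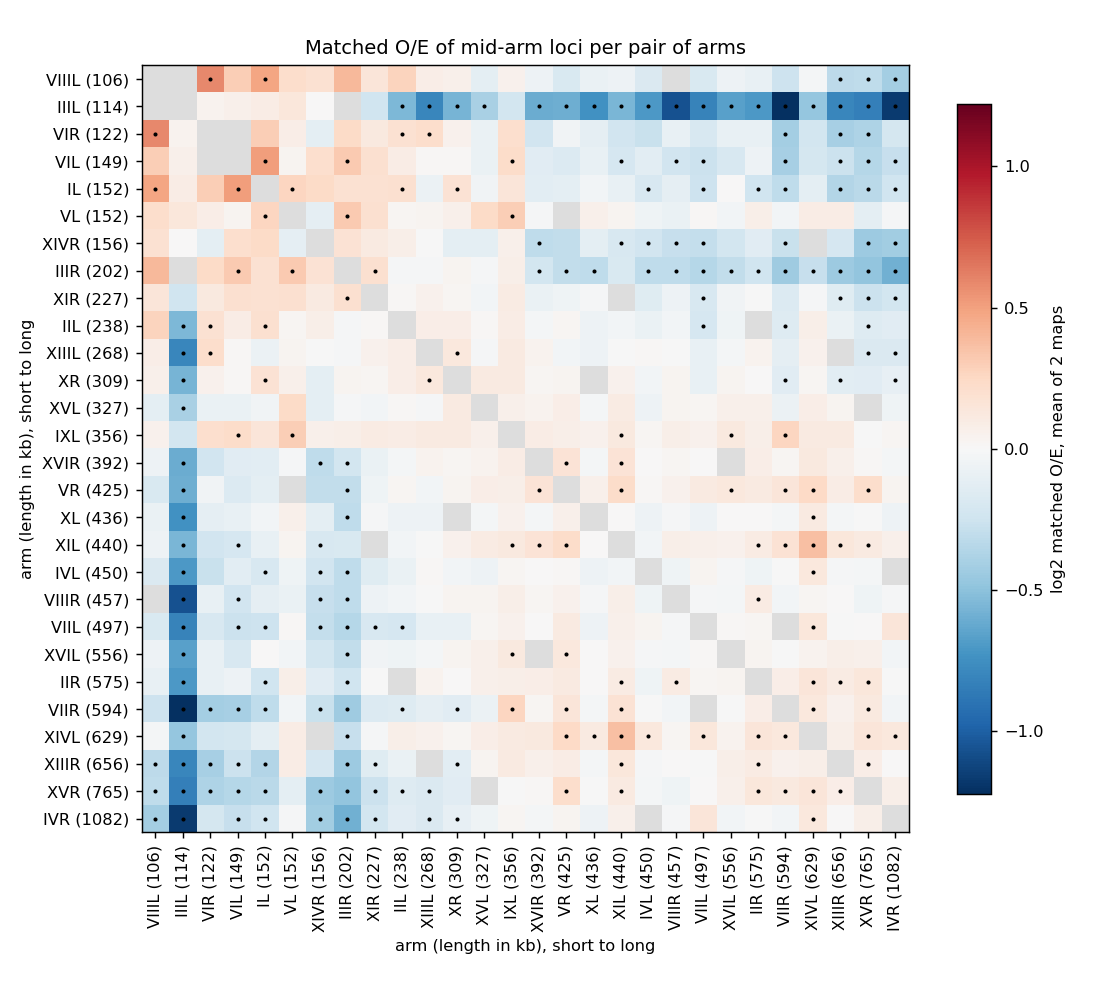
Matched O/E (log2, mean of the 2 maps) of mid-arm loci for each pair of arms, red above and blue below an average mid-arm pair at the same distances. Arms run short to long, with their length in kb in brackets; dots mark called pairs and grey squares pairs on 1 chromosome or with under 10 bin pairs. Of the short arms' squares, those with long arms hold 37 calls below 1 and 0 above it, while 9 of 42 short-short pairs were called higher; the left arm of III forms the darkest row, down to 0.429 on the linear scale.

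The highest pairs of arms joined short arms. The right arm of VI with the left arm of VIII reached 1.51 in replicate 1 and 1.49 in replicate 2, with 74 contacts where 46.9 were expected and 68 where 44.9 were expected. It had the highest unmatched O/E as well, 3.03 ± 0.0397. The left arms of I and VI followed, with 1.42 in replicate 1 and 1.43 in replicate 2, from 250 and 236 contacts. The left arms of I and VIII had 1.31 in replicate 1 and 1.48 in replicate 2, which is a wider spread. These 3 pairs were called higher, and their arms are 106 to 152 kb long.
The right arm of III with the left arm of VIII had 1.26 and 1.38 and was not called, since its interval in replicate 1 ran from 0.947 to 1.35. The right arm of III was called higher with the left arm of VI, at 1.25 ± 0.0486, and with the left arm of V, at 1.25 ± 0.0564. These pairs are small, with 12 to 84 bin pairs each. 

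By unmatched O/E the other highest pairs were again between short arms. The left arm of I had 2.55 in replicate 1 and 2.06 in replicate 2 with the right arm of VI, and 2.12 ± 0.00219 with the left arm of V. The left arm of VIII had 2.30 ± 0.0888 with the left arm of VI, 2.18 ± 0.170 with the left arm of V and 2.13 ± 0.139 with the right arm of XIV. Of these 5, only the left arms of I and V were called higher at matched distance, with a matched O/E of 1.20 ± 0.00535. Unmatched values favour arms whose mid-arm bins all lie near the centromere.

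Among the 8 highest matched pairs 2 joined other arms. The left arms of V and IX had 1.24 in replicate 1 and 1.23 in replicate 2, from 465 and 434 contacts. The left arms of XI and XIV, of 440 and 629 kb, had 1.25 in replicate 1 and 1.33 in replicate 2, from 1371 and 1357 contacts over 625 bin pairs. This pair holds 4 of the single bin pairs described further on, and without those it had 1.12 in replicate 1 and 1.23 in replicate 2 and was still called. When only contacts between chromosomes were balanced, neither pair was called, at 1.08 for V with IX and 1.12 for XI with XIV. The left arms of I and V were not called in that setting either, at 1.10.

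All 5 of the lowest pairs of arms, by either value, joined the left arm of III to a long or medium arm. With the right arm of VII its matched O/E was 0.479 in replicate 1 and 0.379 in replicate 2, with 77 contacts where 163 were expected and 57 where 152 were expected. With the right arm of IV it was 0.447 and 0.443, and with the right arm of VIII 0.512 and 0.448. With the right arm of XV it was 0.564 and 0.559, and with the left arm of VII 0.581 and 0.557. The upper bounds of all 5 intervals were at most 0.703 in both maps.

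The left arm of III, of 114 kb, carries the silent mating-type locus HML near its end. Over all partners its matched O/E was 0.688 in replicate 1 and 0.661 in replicate 2, the lowest of the 28 arms, and 18 of its 25 tested pairs of arms were called lower and 0 higher. Its value fell with the length of the partner arm. It was 0.942 ± 0.00790 with arms shorter than 250 kb, 0.648 ± 0.0293 with arms of 250 to 500 kb and 0.572 ± 0.0170 with arms longer than 500 kb. The arm has only 3 mid-arm bins, so it rests on few loci. The bin of PDI1, which encodes protein disulfide isomerase, and GLK1, a glucokinase, lies nearest to the centromere (chrIII:50001-60000). It had 0.780 in replicate 1 and 0.739 in replicate 2. The next bin outward, of SPS22 and POF1 (chrIII:40001-50000), had 0.682 and 0.698. The outermost, of RDT1 and SPB1, an rRNA methyltransferase gene (chrIII:30001-40000), had 0.602 and 0.547, and it was the lowest of the 515 bins. The level of this arm depended on the balance. It was 0.867 when only contacts between chromosomes were balanced and 0.836 in contacts with no balance, below 1 in both.

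The right arm of III, which carries MAT and HMR, was the next lowest. It had 0.888 in replicate 1 and 0.884 in replicate 2, with 13 pairs called lower and 3 higher out of 26. It showed the same order over partner lengths, with 1.14 ± 0.00718 for short arms, 0.888 ± 0.00243 for medium and 0.764 ± 0.00901 for long arms. The arms of III took part in 31 of the 71 pairs called lower. The right arm of XIV came after it, at 0.912 and 0.898, with 8 pairs called lower and 0 higher out of 26. The 3 highest arms were the left arms of XIV, at 1.07 ± 0.0109, of IX, at 1.07 ± 0.0111, and of XI, at 1.06 ± 0.0140. These 3 values differ by about their spread. The total of an arm depends on how the map is balanced: when only contacts between chromosomes were balanced, these 3 arms fell to 0.997, 0.980 and 0.988. The counting intervals of the left arms of IX and XI, above 1 in both maps before, then lay below 1 in both. The right arm of XIV was then at 0.979 and no longer called.

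Arm length ordered the pairs of arms more widely. Arms were classed as short, below 250 kb (10 arms), medium, 250 to 500 kb (11 arms), and long, above 500 kb (7 arms). Short arms with short arms had matched O/E values of 1.10 and 1.11 in replicates 1 and 2. Short arms with medium arms had 0.947 and 0.940, and short arms with long arms had 0.869 in both. Medium arms had 1.03 ± 0.00619 with each other and 1.03 ± 0.00282 with long arms, and long arms had 1.05 ± 0.00170 with each other. Differences between short-short, short-medium and short-long pairs were many times the spread between maps, while the 3 classes without short arms lay within a few hundredths of each other.

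The calls fell in the same way. Of 42 tested pairs of short arms, 9 were called higher and 1 lower. Of 107 pairs of a short and a medium arm, 4 were called higher and 28 lower, and of 68 pairs of a short and a long arm, 0 were called higher and 37 lower. Of 54 pairs of medium arms, 5 were called higher and 0 lower. Of 72 pairs of a medium and a long arm, 15 were called higher and 5 lower, and of 21 pairs of long arms, 8 were called higher and 0 lower. Over all 364 pairs, matched O/E went down with the difference in log2 arm length, with rho = -0.635 in replicate 1 and -0.632 in replicate 2. Without the left arm of III, rho was -0.595 and -0.599 over 339 pairs. The pairs share arms, and these are descriptions with no test.

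**Figure D3:**
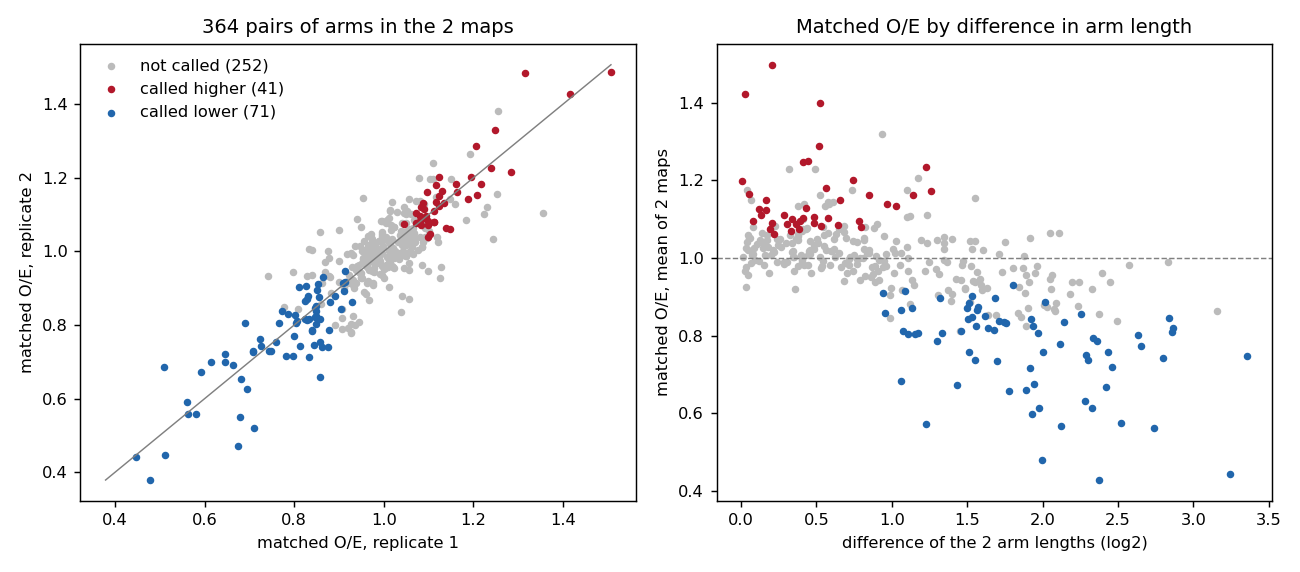
Left, matched O/E of 364 pairs of arms in replicate 1 against replicate 2, with the diagonal as a line. Right, the mean of both maps against the difference of the 2 arm lengths on the log2 scale; red and blue points are called higher (41) and lower (71), grey points are not called. Calls above 1 gather where arm lengths are alike and calls below 1 where they differ.

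The left arm of III was also left out, a choice made after the data were seen, while the right arm of III stayed in. The short-short value was then 1.11, the short-medium value 0.949 and the short-long value 0.875. Among loci that lie 50 to 100 kb from the centromere alone, the classes with short arms differed less and the order changed. There short arms had 1.05 ± 0.0263 with short, 0.955 ± 0.00932 with medium and 0.958 ± 0.00404 with long arms. The interval of the short-short value included 1 in replicate 2. Medium arms had 1.01 ± 0.0112 with each other and 1.04 ± 0.00738 with long arms, and long arms had the highest value, 1.10 ± 0.0263 with each other. The balance mattered for part of the order. In contacts with no balance the short-short value was 1.21 and the short-long value 0.856, but short with medium stood at 1.00, medium with long at 0.997 and long with long at 0.955.

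The gap between inner loci of short arms and inner loci of longer arms was narrowest with long-arm loci at the same distance and wider than that in all 4 classes further out. Short-arm loci 50 to 100 kb out had a matched O/E of 0.958 ± 0.00404 with long-arm loci at the same distance. With long-arm loci 100 to 150 kb out they had 0.869 ± 0.00272, at 150 to 200 kb 0.817 ± 0.0258, at 200 to 250 kb 0.799 ± 0.0244 and at 250 to 300 kb 0.802 ± 0.00149. Inner loci of long arms had 1.10 ± 0.0263, 1.06 ± 0.0457, 1.04 ± 0.0109, 0.994 ± 0.00793 and 1.01 ± 0.0437 with the same 5 classes of long-arm loci. In each of the 5 classes both maps were lower for short arms than for long ones. With medium arms as partners, short-arm inner loci had between 0.903 and 0.993, and long-arm inner loci between 1.02 and 1.14.

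**Figure D4:**
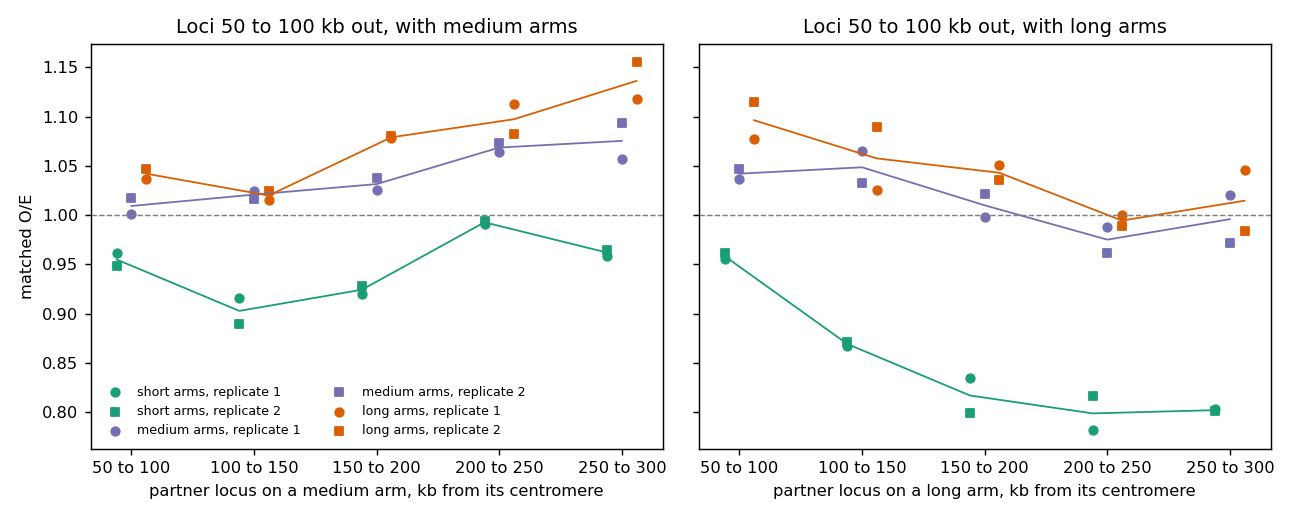
Matched O/E of loci 50 to 100 kb from the centromere on short, medium and long arms (colours), with partner loci on medium arms (left) and long arms (right) by the partner's distance to its own centromere in kb. Circles are replicate 1, squares replicate 2, lines the mean of both; the axis does not start at 0. On the right, short arms go down to about 0.80 beyond 200 kb while medium and long arms stay between 0.96 and 1.12.

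Partner profiles were compared between arms by rank. Over 24 shared partner arms, the matched O/E of the right arms of III and XI ranked most alike, with rho = 0.953, followed by those of the right arms of IV and VII, with rho = 0.944. Likeness was not set by length alone: the left arms of I and V, both 152 kb long, had rho = 0.373, and the right arms of V and XV, of 425 and 765 kb, had rho = 0.931. The most opposed profiles were those of the left arm of VIII, of 106 kb, and the right arm of XV, of 765 kb, with rho = -0.807 over 23 partner arms. The profiles of the 2 arms of 1 chromosome were alike in some cases and opposed in others. Their rho ranged from -0.718 for XIV, whose arms are 629 and 156 kb long, up to 0.886, with a median of 0.149 over 13 chromosomes.

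Single bins varied less than pairs of arms. Averaged over their mid-arm partners, the 515 bins had matched O/E values between 0.574 and 1.30, with a median of 0.996, and the maps correlated with r = 0.907 over bins. The highest bin, of PDR12, which encodes a weak-acid efflux pump, and SUR1 (chrXVI:450001-460000), had 1.29 in replicate 1 and 1.31 in replicate 2. Bins with more gene starts had slightly higher values (rho = 0.308), bins with more DpnII sites slightly lower ones (rho = -0.204), and GC content had rho = 0.194. Neighbouring bins are not independent, and these are descriptions.

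Of the study's array and viewpoint loci in this range, the bins of YBP2, OLE1, PUS2, TRP2, SHC1, MET6 and the LacO site were examined. Their matched O/E values lay within those of the middle 95% of mid-arm bins, 0.816 to 1.21. The bin of YBP2 and OLE1, the fatty acid desaturase gene (chrVII:390001-400000), had 0.966 in replicate 1 and 1.02 in replicate 2, and ranked 265 of 515. PUS2, a pseudouridine synthase gene, ranked 134 with 1.06 ± 0.0458. TRP2, of tryptophan synthesis, had 1.06 ± 0.0165. MET6, the methionine synthase gene, had 1.09 ± 0.0505, and SHC1, known for its part in chitin synthesis during sporulation, had 0.957 ± 0.0429. The bins of 2 other viewpoints of the study, added after their values were seen, were lower: that of MAT (chrIII:200001-210000) had 0.951 and 0.883, and that of CDC43 (chrVII:210001-220000) had 0.881 and 0.859. Further viewpoints were not examined. The counting intervals of the bins of YBP2, PUS2, TRP2, MET6 and SHC1 included 1 in at least 1 map, but their levels depended on the balance. When only contacts between chromosomes were balanced, MET6 was at 0.906, with both intervals below 1, and TRP2 at 0.948. In contacts with no balance PUS2 was at 1.41, TRP2 at 1.32 and MET6 at 1.25, all with intervals above 1, and SHC1 was at 0.873, with intervals below 1. The bin of the LacO array (chrXV:490001-500000) had 1.19 in both maps and ranked 23. The bins on either side had 1.03 and 1.07, and 1.04 and 1.04. When only contacts between chromosomes were balanced, the LacO bin was at 0.938. Whether the array itself bears on this value was not tested.
Between these loci the depth was too low to show a difference. YBP2 and TRP2 had 3 contacts over both maps where 5.54 were expected, a ratio of 0.541 (0.112 to 1.58). TRP2 and the LacO site had 8, a ratio to the expected number of 1.6 (0.691 to 3.15). YBP2 and the LacO site had 4 where 4.49 were expected.

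A few single pairs of mid-arm bins stood far above the rest. Contacts of each of the 544303 pairs were set against those expected at their distances with a one-sided exact Poisson test, adjusted by Benjamini-Hochberg in each map. At an adjusted p under 0.05 in both maps, 11 mid-arm pairs were called, or 0.00899%, against 62 of the 421991 other pairs between chromosomes, or 0.0147%. Over all pairs 0.0134% were called. Of the 11 pairs, 10 have a Ty element annotated in at least 1 bin of the reference, 5 share identical 50-base words and 6 do not. Of the 122312 mid-arm pairs, 736 share such a word. Ty elements lie in 32 of the 524 mid-arm bins before the filter, which is a share of bins and not of pairs. The share of all mid-arm pairs with a Ty element in either bin was not counted. The 10 of 11 therefore has no matching background here. The called pairs are not separate cases, since 5 of them include the same bin of XIV. Where Ty elements lie in yMD291 was not tested, since reads were aligned by the authors to the sacCer3 reference and the strain is of another background.

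The highest pair joined the bins of the Ty3 elements shown above. The bin of CLD1, a cardiolipin deacylase gene, and SHY1 (chrVII:710001-720000) had 100 contacts in replicate 1 and 87 in replicate 2 with the bin of AIM19 and KTR7 (chrIX:200001-210000), where 1.19 and 1.08 were expected. The bins share 1349 words. The next bin on VII, of the cyclin genes CLB1 and CLB6, which holds the rest of the element and shares 2091 words, had 25 and 22 contacts. The bin on the other side had 3 and 1. The excess was seen in the 2 bins of VII that hold the element.

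The second pair behaved otherwise. The bin of MYO3, a myosin gene, and PMU1 (chrXI:200001-210000), which holds a tRNA gene, had 45 contacts in replicate 1 and 44 in replicate 2 with the bin of VAC7 and MSG5 on XIV (chrXIV:520001-530000), where 1.26 and 1.16 were expected. The bin on XIV holds the Ty1 element YNLWTy1-2, and the 2 bins share no word. Contacts were also high on both sides along XI. They were 14 and 8 at 10 kb and 17 and 12 at 20 kb to the left, and 18 and 9 at 10 kb and 7 and 8 at 20 kb to the right. The expected number in replicate 1 was between 0.869 and 1.13 in these bins. At 60 kb they had 2 contacts in each map to the left and 0 and 2 to the right. Of the 11 called pairs, 4 were this bin of XIV with bins of XI, and 1 was the same bin with that of ATP1, a subunit of ATP synthase, and BNA4 (chrII:30001-40000), which holds a Ty2 element. That pair had 19 and 12 contacts, and its bins share 680 words.

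The third pair joined the bins of BMH2 and TVP15 (chrIV:650001-660000), with a Ty1 element, and of VPS73 and RPL28, a ribosomal protein gene (chrVII:310001-320000). It had 34 contacts in replicate 1 and 44 in replicate 2, where 1.23 and 1.14 were expected, and its bins share 35 words, those of the 84 bases shown above. Flanking bins of IV were higher here as well, with 11 and 7 contacts at 20 kb and 11 and 9 at 30 kb to the left. Their expected numbers in replicate 1 were 2.00 and 1.95. To the right the bins of IV had 7 and 8 contacts at 10 kb and 3 and 5 at 20 kb. There 1.77 and 1.79 were expected in replicate 1. The bin at 10 kb to the right shares 108 words with the bin of VII. Of the named pairs that remain, 2 joined the bin of ZEO1 and INO4, a regulator of phospholipid synthesis (chrXV:110001-120000), with a Ty1 element, to neighbouring bins of III. The bin of SLM5 and PMP1 (chrIII:160001-170000) had 15 and 17 contacts with it, and that of FEN2 and RIM1 (chrIII:170001-180000) had 8 and 11. The bin of SLM5 shares 280 words with the bin on XV and that of FEN2 none. To the left of the bin of SLM5, the bin on XV had 7 and 4 contacts at 10 kb, 3 and 4 at 30 kb and 5 and 3 at 70 kb. Expected numbers in replicate 1 were 0.599, 0.867 and 0.558, and these bins are not mid-arm. The bin at 10 kb shares 86 words with it. To the right it had 5 and 3 contacts at 20 kb, where 1.08 were expected in replicate 1, and 0 and 1 at 40 kb. The only called pair with no Ty element in either bin, singled out after its value was seen, joined the bin of SLM5 to that of BET3 and MET1, a gene of siroheme synthesis (chrXI:570001-580000). It had 30 and 19 contacts where 2.23 and 2.05 were expected.

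**Figure D5:**
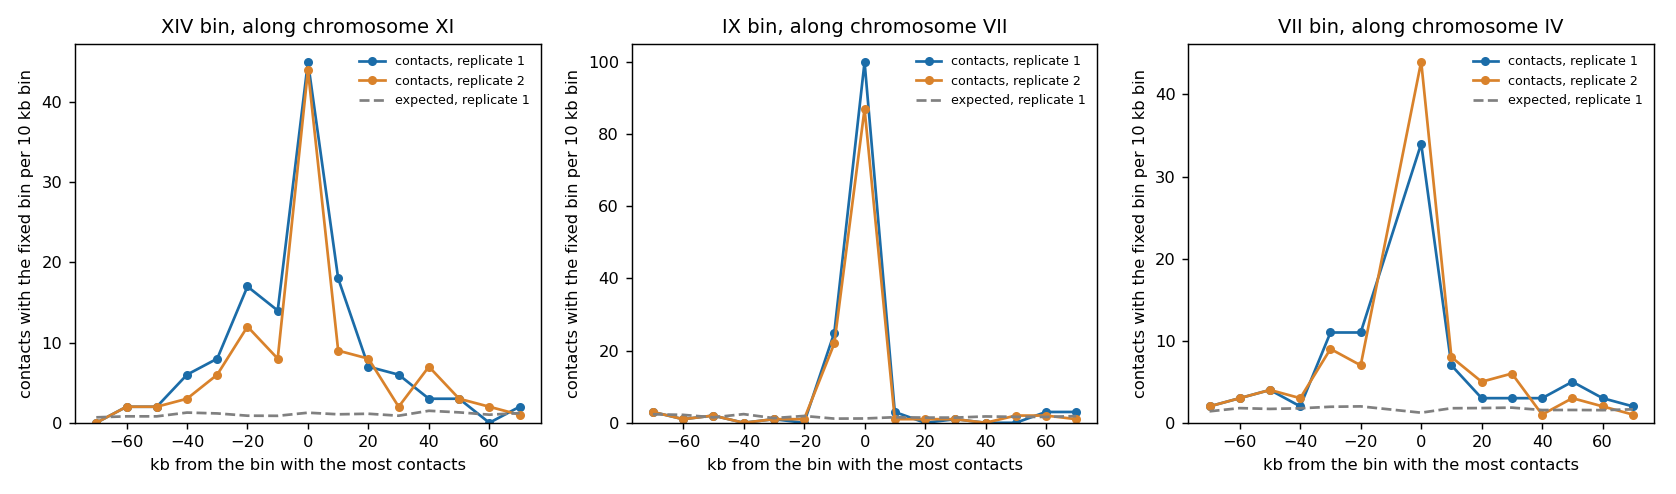
Contacts of 3 fixed mid-arm bins with 10 kb bins along another chromosome, in replicates 1 and 2, against the distance in kb from the bin with the most contacts; the dashed line is the number expected in replicate 1. The XIV bin has raised contacts out to several bins on both sides along XI, while those of the IX bin fall from 100 and 87 to 3 and 1 in the next bin on the right along VII; a bin of IV that was not used is skipped.

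Pairs that share sequence were somewhat above those that do not. The 736 mid-arm pairs that share words stood at 1.26 in replicate 1 and 1.24 in replicate 2 (matched O/E), against 0.998 for pairs without shared words. Without the 5 called ones, which were chosen for their high contact, it was 1.03 ± 0.0151, and the median single pair that shares a word stood at 0.932, against 0.888 for pairs that share none. The called bin pairs touched 6 pairs of arms. Without them the right arm of VII with the left arm of IX had 1.03, against 1.20 with them, and was no longer called. The right arms of III and XI had 1.09, against 1.15, and were no longer called either. In turn, the right arm of III with the left arm of XV had 0.918, against 0.987, and was called lower.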

How the data were processed

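Hi-C was measured in 2 cultures of yeast strain yMD291. Per the study's methods the authors aligned read pairs to sacCer3 and built maps with HiC-Pro, and the signal they deposited gives, for 2 bins of 10 kb, the contact frequency after iterative correction (ICE) of each library by itself. Balancing gives every bin the same total over contacts within and between chromosomes, so the level of a locus or arm between chromosomes also depends on its contacts within its own chromosome. The sources used here do not give the read filters. The correction factor of each bin was estimated from the same values, by fitting them to whole contact numbers. Each value divided by the factors of its 2 bins then gave a whole contact number to within 0.01, which is no independent check. These contacts carry the counting intervals. Depth was 3751691 and 3511728 contacts.

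Bins were kept where a share of at least 0.5 of partners on other chromosomes had a value in both maps, which left out 9 mid-arm bins. O/E is relative to the mean of kept pairs between chromosomes, those with chromosome XII included. Matched O/E is a ratio of mean signal, and its intervals are those of contacts over expected contacts. Genes, Ty elements and sequences are from NCBI RefSeq's R64 assembly, which has the same chromosome lengths as the bins the authors deposited. Shared words are identical on either strand.

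Members, lists and tests were chosen with earlier results of these data known. Named were the 8 highest and 5 lowest pairs of arms by each O/E (both maps above 1, or both below), the 3 highest and 3 lowest arms, the 10 highest called bin pairs and YBP2, OLE1, PUS2, TRP2, SHC1, MET6 and the LacO site. Other bins were named after their values were seen. Bins carry at most 2 gene names. Scripts used Python 3.11.15, numpy 2.4.6, pandas 2.3.3, scipy 1.17.1 and matplotlib 3.10.9 and were tested on simulated maps. Alternatives were other balances, no filter on bins, capped values, pairs without shared words, other classes of distance and thresholds, and leaving out chromosome XV or each replicate.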

Additional observations from a re-analysis of the deposited data

How the results depend on the processing

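The mean O/E of mid-arm pairs, the like-distance ratio, the O/E at 50 to 100 kb and the short-short matched O/E kept their direction in every alternative run. Some moved by more than the small spread between maps. When only contacts between chromosomes were balanced, they were 1.11, 1.65, 1.77 and 1.16, and in contacts with no balance 1.21, 1.73, 2.12 and 1.21. Without the filter on bins the mean was 1.20, the O/E at 50 to 100 kb 2.01 and the short-short value 1.10. With single pairs capped the mean was 1.20 and the 50 to 100 kb value 2.03, and without chromosome XV they were 1.21 and 2.02. The mean was 1.18 when XII was left out of the expectation. After the data were seen, the left arm of III was left out, which gave a mean of 1.20, a ratio of 1.67 and a short-short value of 1.11, and the called bin pairs, which gave a short-short value of 1.10. The number of called bin pairs was 6 without pairs that share words and 24 against the mean between chromosomes. The number of called pairs of arms was between 95 and 140 in all alternatives with both maps, and their share of the tested pairs between 28.0% and 38.5%. The 95 were 30.4% of 312 tested pairs without chromosome XV, and 28.0% of 339 without the left arm of III.

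When only contacts between chromosomes were balanced, the left arms of IX, XI and XIV fell to 0.980, 0.988 and 0.997 and the LacO bin to 0.938. The intervals of the left arms of IX and XI then lay below 1 in both maps. With no balance, long with long arms fell to 0.955 and medium with long arms to 0.997, while short with medium arms stood at 1.00. The cause was not tested. With 1 map left out, the mean was 1.201 to 1.202, the ratio 1.67 to 1.69 and the 50 to 100 kb value 2.02 to 2.03. The short-short value was then 1.10 to 1.11, and the called bin pairs were 15 in each map. The called pairs of arms were 149 to 156, or 40.9% to 42.9% of those tested. No paired analysis was possible because the 2 maps form a single group. Single bin pairs hold a median of 2 contacts, which limits what can be said of any one of them.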
